A study of Mus musculus with 4 samples.

Results

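Transcripts of the NF-kB system and of inflammatory cytokines were described in the RAW264.7 line, which was derived from a virus-induced mouse tumour and resembles macrophages, with and without 1,5-anhydroglucitol (1,5-AG). The 40 genes were chosen by name: the 5 NF-kB subunits, 5 genes of the IkB family, other feedback inhibitors, target genes, and cytokines with their antagonists and ligands. Of these, 37 had a row among the 21523 genes of the table, and the expression of Il6, Il12b and Csf2 was not analysed here. The treated group (AG in the labels) received 0.5 mM 1,5-AG, a polyol that is glucose without the hydroxyl group on carbon 1, for 24 h. The control group (Ctrl) had no treatment, and the sources used here give no culture time for it. Each group had 2 libraries, made from total RNA with a stranded mRNA kit. All libraries came from the same cell line, grown in the same serum-containing medium. Since the labels do not call the libraries of a group separate cultures, the spread behind each p-value is that between libraries and could be technical alone.

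NF-kB factors are dimers of Rel-family subunits that IkB proteins hold in the cytoplasm. When a receptor for a microbial product or a cytokine is engaged, the IKK kinases mark IkB for destruction, and the freed dimers enter the nucleus and switch on cytokine genes. Several targets, among them Nfkbia and Tnfaip3, encode inhibitors that end the response. Macrophages kept without a stimulus hold most of the inflammatory cytokine genes nearly silent.

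The deposited values were FPKM, fragments scaled to exon length and library size, which can be compared between genes because they are per length. Whole fragments were recovered from them, and the 4 libraries held 14616556 to 16228673 fragments in genes. Differences between groups were tested with limma on log2(FPKM + 1) over the 11120 genes with a mean of at least 1 FPKM, a scale that understates the change of weakly expressed genes. Each of the 7 macrophage markers (Cd68, Csf1r, Adgre1, Lyz2, Itgam, Cd14 and Fcgr1) had at least 1 FPKM in some library. Of 26 markers of T, B, dendritic, epithelial and mast cells, neutrophils and fibroblasts, 12 had a row, and 0 of these reached 1 FPKM in any library. Lyz2, the lysozyme gene, fell from 4487.9 ± 92.9 to 3048.0 ± 66.9 FPKM (SD, n = 2; limma adjusted p = 0.0169). The other 6 macrophage markers summed to 1343.1 and 1309.9 FPKM in control and to 1306.3 and 1285.1 FPKM with 1,5-AG. Of these 6, Adgre1, Csf1r and Cd68 were lower in both treated libraries, and Itgam, Cd14 and Fcgr1 overlapped. Adgre1 had 20.1 and 23.4 against 16.9 and 17.5 FPKM (limma adjusted p = 0.139). A voom fit on recovered fragments gave adjusted p = 0.00543 for Adgre1, 0.0174 for Csf1r and 0.269 for Cd68. The part of these differences in the results below was not tested. In bulk RNA, fewer cells with a transcript and less of it per cell cannot be told apart.

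All 5 subunits and all 5 listed IkB family genes were expressed. Of the 11 cytokine and ligand genes with a row, 6 were expressed and 5 were not. Of the 37 genes, 28 had at least 1 FPKM in some library, and the same 28 entered the test. The other 9 stayed under 1 FPKM in all 4 libraries. The 28 genes split evenly, 14 higher and 14 lower with 1,5-AG, with a median log2 fold change of -0.02 against -0.0025 over all genes tested, of which 49.1% were higher and 50.9% lower. The range ran from -0.44 for Gadd45b to 0.45 for Nfkbia, and the median absolute value was 0.11, against 0.08 over all genes. An absolute log2 fold change under 0.25 was found for 23 of the 28, and for 88.2% of all genes.

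At a limma adjusted p of 0.05, 0 of the 28 passed in either direction, where 1.46% of all genes tested did. At an unadjusted p of 0.05, 5 of the 28 passed (17.9%), 3 higher and 2 lower, which is near the 18.2% of all genes tested (9.15% higher and 9.04% lower). In 15 of the 28 (53.6%) the 2 groups did not overlap, 6 higher and 9 lower, against 49.6% of all genes (24.2% higher and 25.4% lower). The unadjusted 5 were Nfkbia, Bcl3 and Tnf, higher with 1,5-AG, and Gadd45b and Tnfaip2, lower. Fitted on protein coding genes alone, limma called 4 of 28: Nfkbia and Tnf higher, Gadd45b and Tnfaip2 lower, with 4.36% of genes called (1.73% higher and 2.64% lower). A voom fit on recovered fragments at a mean of at least 10 called 4 of 30, Nfkbia and Cd40 higher and Gadd45b and Tnfaip2 lower, with 7.47% of genes called (3.24% higher and 4.23% lower). With 1 library left out, 1 group keeps a lone sample, so only effect sizes of the unadjusted 5 are given. The limma log2 fold changes then ran from 0.39 to 0.51 for Nfkbia, 0.33 to 0.36 for Bcl3 and 0.27 to 0.33 for Tnf. They ran from -0.55 to -0.33 for Gadd45b and from -0.27 to -0.19 for Tnfaip2.

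**Figure D1:**
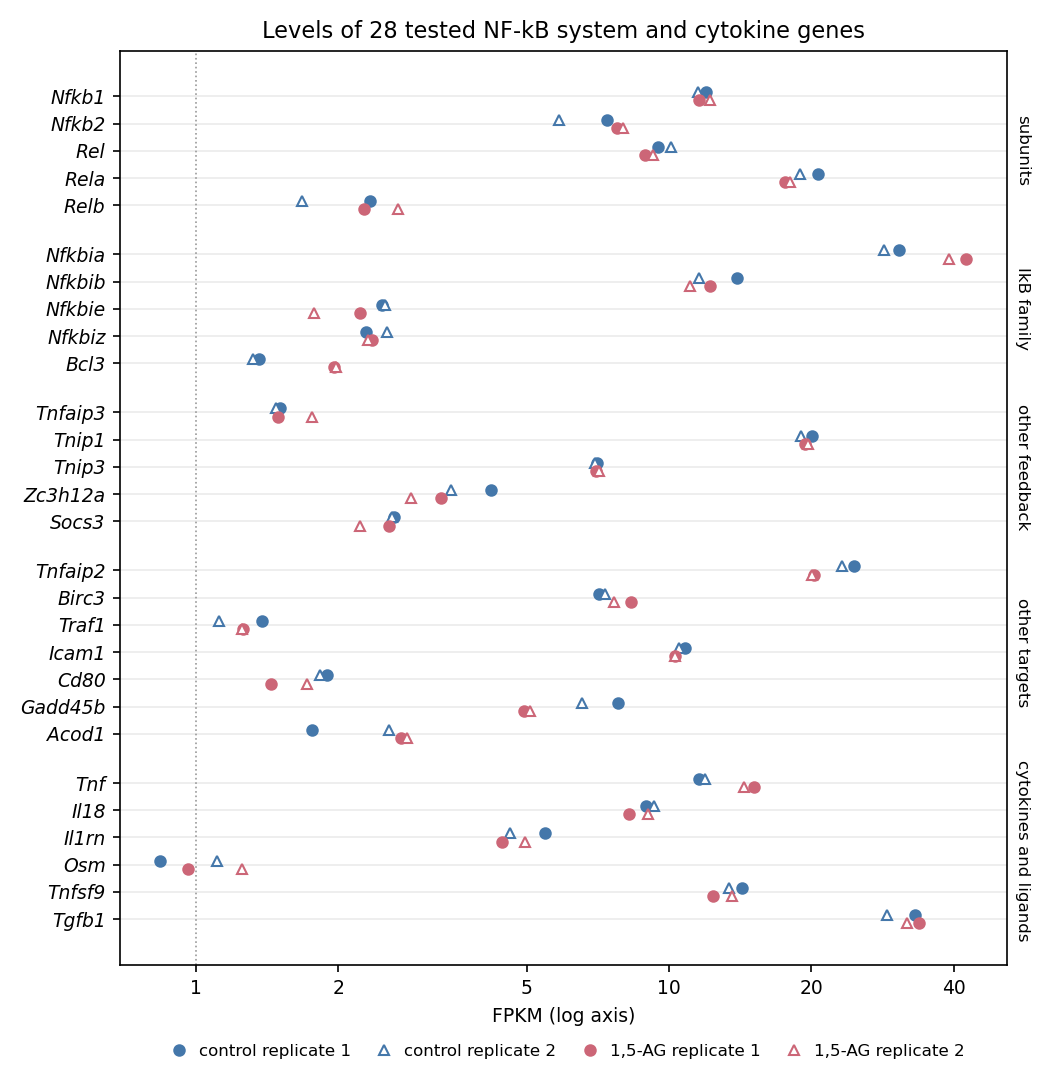
FPKM on a log axis of the 28 genes that entered the test, by role, with 1 point per library (blue control, red 1,5-AG; circles replicate 1, triangles replicate 2). Nfkbia, Bcl3 and Tnf have both red points to the right of both blue points, and Gadd45b and Tnfaip2 have them to the left, while most other genes lie close together or overlap.

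On log2(FPKM + 1), the largest positive difference among the 28 tested genes belonged to Nfkbia (ENSMUSG00000021025; mm10 chromosome 12, 55489410 to 55492647), which encodes IkB-alpha, the inhibitor that resets NF-kB after a stimulus. It had 30.7 and 28.5 FPKM in the control libraries and 42.5 and 39.0 FPKM in the 1,5-AG libraries, from 745 to 1000 fragments per library. Both treated libraries were above both controls, and the group means of 29.6 ± 1.53 and 40.7 ± 2.47 FPKM (SD, n = 2) gave a ratio of 1.38. By the ratio of means, the weakly expressed genes Bcl3 (1.47), Cd40 (2.72) and Il1a (1.57) stood higher. The Il1a ratio rests on 4 fragments in the control group and 6 in the treated group. The limma log2 fold change was 0.45 (SE 0.06, 95% interval 0.29 to 0.61), with an adjusted p of 0.0504, just short of the threshold. The adjusted p was 0.00672 in the limma fit on protein coding genes and 0.000162 with voom. In limma fits that left out 1 library, the log2 fold change stayed between 0.39 and 0.51.

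The stretch before a gene's start is where NF-kB binding sites are often found, so the 250 bases before the start were searched for the 10-base NF-kB consensus on both strands, with overlapping matches merged. RefSeq windows on GRCm38.p6 were at hand for 30 of the 40 genes, also for Il6, Il12b and Csf2. Of the 30, 11 (36.7%), Il6 among them, held a match. The share was 8.23% of the 27025 genes in the RefSeq table and 7.25% of its 32851 windows. The list was drawn up from genes known as NF-kB components and targets, and a match is a description of letters, not a site shown to be used. Windows of 4 genes are shown 5′ to 3′ on the strand of the gene, with the match in capitals: Nfkbia because it had the largest positive difference on log2(FPKM + 1), Tnip1 because it held the longest match and had a difference near 0, Nfkbie as an inhibitor with a match and a negative difference, and Tnf because these letters were not found in its window.
Nfkbia (chr12:55492648-55492897, minus strand): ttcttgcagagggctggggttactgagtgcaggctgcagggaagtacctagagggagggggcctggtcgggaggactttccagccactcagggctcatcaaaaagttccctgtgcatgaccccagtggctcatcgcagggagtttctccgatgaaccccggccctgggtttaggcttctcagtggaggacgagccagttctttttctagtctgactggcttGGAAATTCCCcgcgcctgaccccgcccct
Tnip1 (chr11:54962941-54963190, minus strand): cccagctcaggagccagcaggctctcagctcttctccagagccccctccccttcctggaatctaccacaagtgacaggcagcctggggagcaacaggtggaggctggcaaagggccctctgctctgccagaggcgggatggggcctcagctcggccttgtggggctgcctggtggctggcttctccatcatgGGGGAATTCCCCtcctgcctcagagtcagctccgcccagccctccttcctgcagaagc
Nfkbie (chr17:45555450-45555699, plus strand): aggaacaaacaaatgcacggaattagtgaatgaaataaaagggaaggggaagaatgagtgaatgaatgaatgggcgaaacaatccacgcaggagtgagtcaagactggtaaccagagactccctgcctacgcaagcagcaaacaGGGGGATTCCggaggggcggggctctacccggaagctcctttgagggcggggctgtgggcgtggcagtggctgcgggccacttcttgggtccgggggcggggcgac
Tnf (chr17:35202008-35202257, minus strand): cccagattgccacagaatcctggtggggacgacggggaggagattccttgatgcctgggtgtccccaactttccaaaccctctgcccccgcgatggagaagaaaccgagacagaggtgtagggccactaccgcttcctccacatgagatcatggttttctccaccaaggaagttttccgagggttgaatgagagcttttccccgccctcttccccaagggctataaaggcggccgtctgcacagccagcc

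The matches of Nfkbia, Tnip1 and Nfkbie began 29, 58 and 106 bases before the start. The start is that given by RefSeq, and a gene with several windows was counted if any of them held a match, as for Nfkb2 and Tnfaip3. By the GENCODE gene coordinates, the matches of Nfkb2, Tnfaip3, Tnip3 and Tnfaip2 lay inside the gene. Whether a match goes with a difference was not tested. The 9 tested genes with a match (Rel, Nfkb2, Nfkbia, Nfkbie, Tnfaip3, Tnip1, Tnip3, Tnfaip2 and Tgfb1) had log2 fold changes from -0.23 to 0.45 with a median of 0.01, and 6 were positive. The 14 tested genes with a window and no match ran from -0.44 to 0.34 with a median of -0.08, and 5 were positive.

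Subunit mRNA differed little between the groups. Rela, the main activating subunit, had 20.7 and 18.9 FPKM in control and 17.6 and 18.0 FPKM with 1,5-AG. Nfkb1, the precursor of its usual partner, had 12.0 and 11.5 against 11.6 and 12.2 FPKM. Rel, the subunit prominent in lymphoid and myeloid cells, had 9.46 and 10.1 against 8.89 and 9.26 FPKM. Rela and Rel were lower in both treated libraries and Nfkb1 overlapped, and the limma log2 fold changes of -0.14 (Rela, adjusted p = 0.294), -0.10 (Rel, 0.453) and 0.02 (Nfkb1, 0.869) did not pass.

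The subunits of the alternative pathway were the less abundant ones. Nfkb2, the precursor that pairs with RelB, had 7.38 and 5.85 FPKM in control and 7.75 and 7.98 FPKM with 1,5-AG. Relb had 2.33 and 1.68 against 2.27 and 2.67 FPKM. The treated libraries lay above both controls for Nfkb2 and overlapped them for Relb, and in both genes the control libraries differed more from each other than the treated ones from control replicate 1. The limma log2 fold changes were 0.23 for Nfkb2 (95% interval -0.05 to 0.50) and 0.22 for Relb (-0.15 to 0.58). The order of levels, Rela, Nfkb1, Rel, Nfkb2 and Relb, held in each of the 4 libraries.

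The other listed IkB genes were less abundant than Nfkbia, and their differences did not pass the test. Nfkbid, a further nuclear IkB gene, was counted in the signalling list below and is named after its values were seen. It had 19.8 and 17.3 FPKM in control and 17.6 and 16.8 FPKM with 1,5-AG (limma log2 fold change -0.10, adjusted p = 0.555). Nfkbib, which encodes IkB-beta, had 13.9 and 11.6 FPKM in control and 12.2 and 11.1 FPKM with 1,5-AG (limma log2 fold change -0.12, adjusted p = 0.590). Nfkbie, the gene of IkB-epsilon, had 2.47 and 2.51 against 2.22 and 1.78 FPKM (-0.22, limma adjusted p = 0.379). The groups overlapped for Nfkbib, and for Nfkbie both treated libraries were lower. Nfkbiz, a nuclear IkB protein that acts as a cofactor for secondary response genes, overlapped between groups, with 2.29 and 2.54 against 2.36 and 2.31 FPKM (-0.03).

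Bcl3 (ENSMUSG00000053175; mm10 chromosome 7, 19808462 to 19822770), another nuclear IkB protein, had 1.36 and 1.32 FPKM in control and 1.96 and 1.98 FPKM with 1,5-AG. These rest on 51 and 53 control fragments and on 71 and 74 in the treated libraries. Replicates lay close together and the groups were separate, with a ratio of means of 1.47. The limma log2 fold change was 0.34 (SE 0.10, 95% interval 0.08 to 0.61, adjusted p = 0.183), and voom gave 0.55 (SE 0.22, adjusted p = 0.148), so neither passed.

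Added up, mRNA of the 3 cytoplasmic IkB genes Nfkbia, Nfkbib and Nfkbie came to 47.1 and 42.6 FPKM in control and to 57.0 and 51.9 FPKM with 1,5-AG. The 5 subunits together had 51.8 and 48.0 FPKM against 48.2 and 50.2 FPKM. Per FPKM of subunit mRNA this was 0.908 and 0.888 FPKM of inhibitor mRNA in control and 1.18 and 1.03 with 1,5-AG. Nfkbia made up 65.2% and 66.9% of the inhibitor sum in control and 74.6% and 75.2% with 1,5-AG. Its ratio to Rela was 1.48 and 1.51 in control and 2.41 and 2.17 with 1,5-AG. These ratios repeat the Nfkbia and Rela values and are no separate evidence. With 2 libraries a group, the smallest two-sided p of an exact permutation test is 0.333, so none was run on them.

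**Figure D2:**
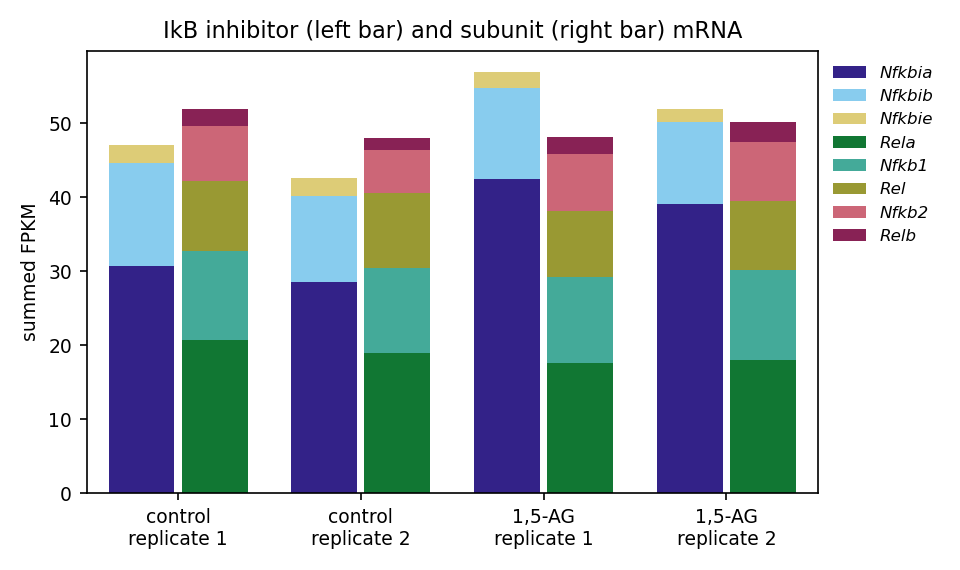
Summed FPKM per library of the 3 cytoplasmic IkB genes (left bar of each pair) and of the 5 subunits (right bar), stacked by gene. The inhibitor bar is shorter than the subunit bar in both control libraries (47.1 against 51.8, and 42.6 against 48.0) and taller in both 1,5-AG libraries (57.0 against 48.2, and 51.9 against 50.2), with Nfkbia as its largest block throughout.

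The other feedback genes showed no difference that passed the test. Tnip1, which binds ubiquitin chains and works with the deubiquitinase encoded by Tnfaip3, had 20.1 and 19.0 FPKM in control and 19.4 and 19.7 FPKM with 1,5-AG. Its relative Tnip3 had 7.05 and 6.99 against 7.01 and 7.13 FPKM. For this pair the 95% limma intervals, -0.12 to 0.13 and -0.13 to 0.14, were among the narrowest in the set. Tnfaip3 itself was near the floor of the test, with 1.51 and 1.48 against 1.49 and 1.76 FPKM (limma log2 fold change 0.07, interval -0.23 to 0.37).

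Zc3h12a, which encodes the ribonuclease Regnase-1 that degrades cytokine mRNAs, had 4.21 and 3.46 FPKM in control and 3.30 and 2.85 FPKM with 1,5-AG. Socs3, a suppressor of cytokine receptor signalling, had 2.62 and 2.60 against 2.56 and 2.22 FPKM. Both genes were lower in both treated libraries, but the treated or control replicates of each were about as far apart as the groups. The limma log2 fold changes of -0.25 (Zc3h12a, adjusted p = 0.334) and -0.09 (Socs3, adjusted p = 0.665) did not pass. Socs1, its relative that limits interferon signalling, stayed under 1 FPKM, with 8 and 7 control fragments and 6 and 11 in the treated libraries.

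Of the target genes, Gadd45b (ENSMUSG00000015312; mm10 chromosome 10, 80930073 to 80932204), a stress-inducible gene that restrains cell death signalling downstream of NF-kB, had the largest negative difference among the 28 tested genes. It had 7.80 and 6.55 FPKM in control and 4.95 and 5.08 FPKM with 1,5-AG, from 188 and 169 against 115 and 122 fragments. The groups were separate, with a ratio of means of 0.699. In limma the log2 fold change was -0.44 (SE 0.09, interval -0.67 to -0.21, adjusted p = 0.0969). It passed on protein coding genes (limma adjusted p = 0.0295) and, narrowly, with voom (0.0481).

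Tnfaip2 (ENSMUSG00000021281; mm10 chromosome 12, 111442469 to 111455018), a gene first known for its induction by TNF, was more abundant. It had 24.6 and 23.2 FPKM in control and 20.3 and 20.1 FPKM with 1,5-AG, with 1477 to 1879 fragments per library. Both treated libraries were lower, and the ratio of means was 0.845. In limma the log2 fold change was -0.23 (SE 0.05, interval -0.35 to -0.11, adjusted p = 0.0995), with adjusted p = 0.0472 in the limma fit on protein coding genes and 0.00658 with voom. Tnfaip2 and Gadd45b were lower in both treated libraries, and Nfkbia and Tnf were higher. These genes were singled out by their own p-values, and a cause of the opposite directions was not tested.

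Birc3, Icam1, Traf1 and Acod1 did not pass the test. Birc3, an inhibitor of apoptosis and ubiquitin ligase, had 7.11 and 7.33 FPKM in control and 8.30 and 7.64 FPKM with 1,5-AG (limma log2 fold change 0.12, adjusted p = 0.378). Icam1, an adhesion molecule for leukocyte integrins, had 10.8 and 10.5 against 10.3 and 10.3 FPKM (-0.05, limma adjusted p = 0.688). Traf1, an adaptor of TNF receptors, had 1.38 and 1.12 against 1.26 and 1.25 FPKM (0.00). Birc3 was higher and Icam1 lower in both treated libraries, and Traf1 overlapped. Acod1, the mitochondrial enzyme that makes itaconate in activated macrophages, had 1.76 and 2.56 FPKM in control and 2.71 and 2.80 FPKM with 1,5-AG. The controls of Acod1 differed more from each other than control replicate 2 did from the treated libraries, and its 0.26 (limma interval -0.11 to 0.63) did not pass.

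Cd80, Cd86 and Cd40, surface proteins through which macrophages and T cells signal to each other, had under 2 FPKM in each library. Cd80 had 1.89 and 1.83 FPKM in control and 1.44 and 1.72 FPKM with 1,5-AG (limma log2 fold change -0.15, adjusted p = 0.543). Cd86, its relative, overlapped between groups at 32 and 38 fragments against 21 and 38. Cd40 (ENSMUSG00000017652; mm10 chromosome 2, 165055627 to 165072948), the receptor through which T cells activate macrophages, had 0.213 and 0.199 FPKM in control and 0.462 and 0.661 FPKM with 1,5-AG. This rests on 11 and 11 control fragments against 23 and 34, so the groups were separate at a low level.

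Cd40 was under the 1 FPKM filter and was tested with voom, which gave a log2 fold change of 1.39 (SE 0.39, interval 0.58 to 2.20, adjusted p = 0.030). The ratio of mean FPKM was 2.72. The voom call was not kept in each fit that left out 1 library. Such fits keep a lone sample in 1 group, which weakens the test for every gene. In limma on log2(FPKM + 1) without the filter, Cd40 had a log2 fold change of 0.37 and did not pass (adjusted p = 0.281). Of the 21515 genes in that fit 0 passed, so not passing there does not set Cd40 apart.

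**Figure D3:**
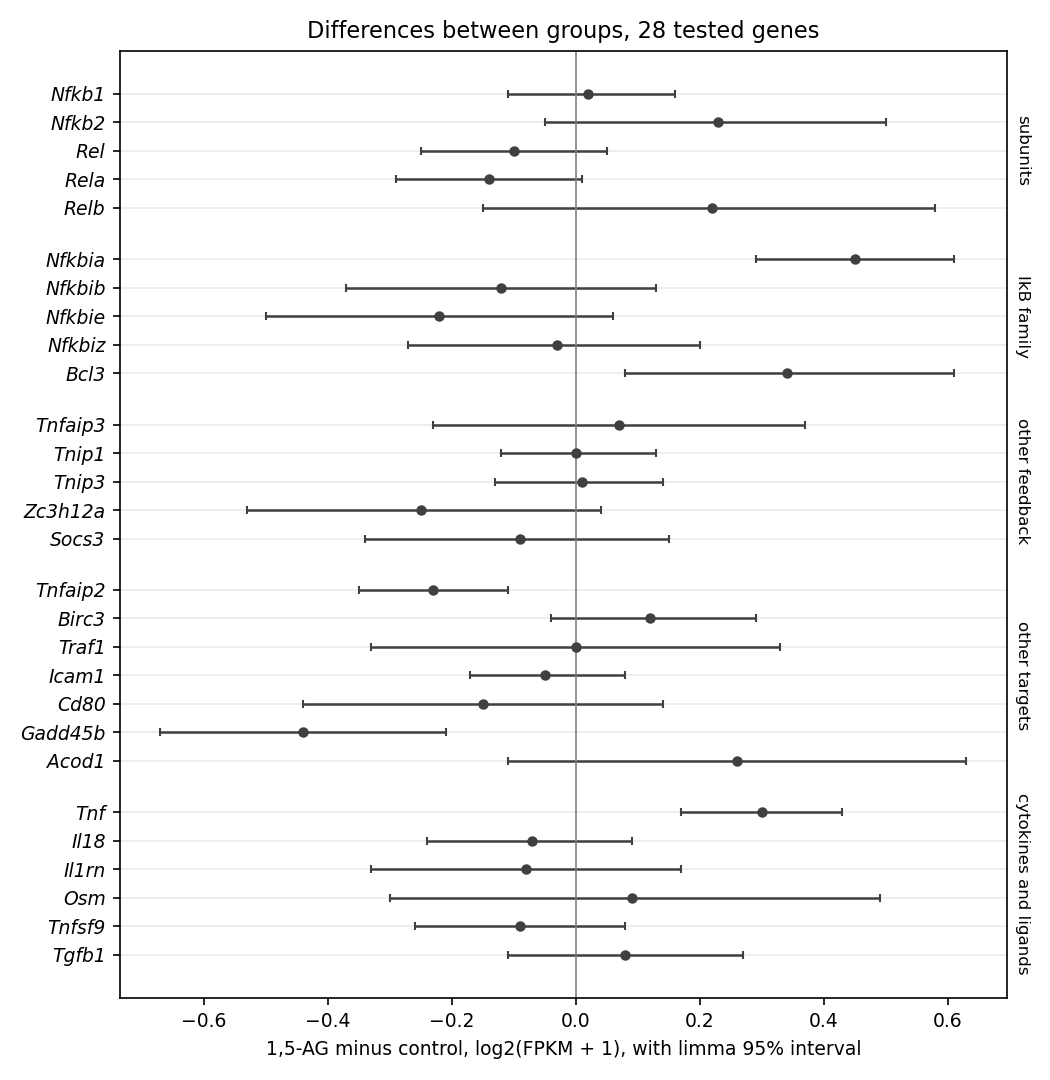
Difference between groups for each of the 28 tested genes (1,5-AG minus control on log2(FPKM + 1), points) with the limma 95% interval (bars), unadjusted. The intervals of Nfkbia, Bcl3 and Tnf lie above 0 and those of Gadd45b and Tnfaip2 below it, and the other 23 cross 0.

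Cytokines and ligands ranged from abundant to at or near the limit of detection. Tgfb1, an anti-inflammatory cytokine made by resting macrophages, was the highest, with 33.1 and 28.9 FPKM in control and 33.7 and 31.9 FPKM with 1,5-AG (limma log2 fold change 0.08, adjusted p = 0.627). Tnfsf9, the ligand of a T cell costimulatory receptor, had 14.3 and 13.4 against 12.4 and 13.6 FPKM (-0.09, limma adjusted p = 0.545). The groups overlapped for both genes, and their 95% intervals (-0.11 to 0.27 and -0.26 to 0.08) bound the differences to a small range.

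Tnf (ENSMUSG00000024401; mm10 chromosome 17, 35199381 to 35202007), the archetypal inflammatory cytokine of macrophages, had 11.6 and 11.9 FPKM in control and 15.1 and 14.4 FPKM with 1,5-AG, from 289 and 317 against 361 and 356 fragments. Both treated libraries were above both controls, with means of 11.8 ± 0.205 and 14.7 ± 0.493 FPKM (SD, n = 2) and a ratio of 1.25. Its limma log2 fold change was 0.30 (SE 0.05, interval 0.17 to 0.43, adjusted p = 0.0735). It passed on protein coding genes (limma adjusted p = 0.0254) and among genes at a mean of at least 5 FPKM (0.0382), and not with voom (0.0571). In limma fits with 1 library left out, the log2 fold change stayed between 0.27 and 0.33.

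Il18, whose product is stored as a precursor until caspase-1 cuts it, had 8.95 and 9.32 FPKM in control and 8.23 and 9.05 FPKM with 1,5-AG. Il1rn, the natural antagonist of the interleukin-1 receptor, had 5.47 and 4.62 against 4.44 and 4.97 FPKM. Osm, which encodes oncostatin M, had 0.842 and 1.11 against 0.964 and 1.25 FPKM. In these 3 genes the groups overlapped, and the limma log2 fold changes were -0.07, -0.08 and 0.09. The precision differed: the 95% interval was -0.24 to 0.09 for Il18 and -0.30 to 0.49 for Osm, which had 29 to 43 fragments per library.

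Il1b, Il1a, Il10, Csf3, Csf1 and the target gene Nos2 had 0 to 6 fragments in each library, at or near the limit of detection in both groups. Il1b, the gene of interleukin-1 beta, had 1 and 4 control fragments against 0 and 0. A count of 0 allows up to 3 fragments, or 0.108 and 0.104 FPKM in the 1,5-AG libraries, so no difference was detectable at this depth. Il1a had 2 and 2 fragments against 2 and 4. Il10, the anti-inflammatory interleukin, had 2 and 0 against 1 and 1 fragments. The colony-stimulating factor gene Csf3 had 1 and 1 against 0 and 1 fragments, and Csf1, the macrophage growth factor, had 3 and 6 against 4 and 0. Nos2, the inducible nitric oxide synthase, had 1 and 6 control fragments against 2 and 3. These limits cover counting error only, since without molecular identifiers copies of 1 molecule may be counted more than once.

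**Figure D4:**
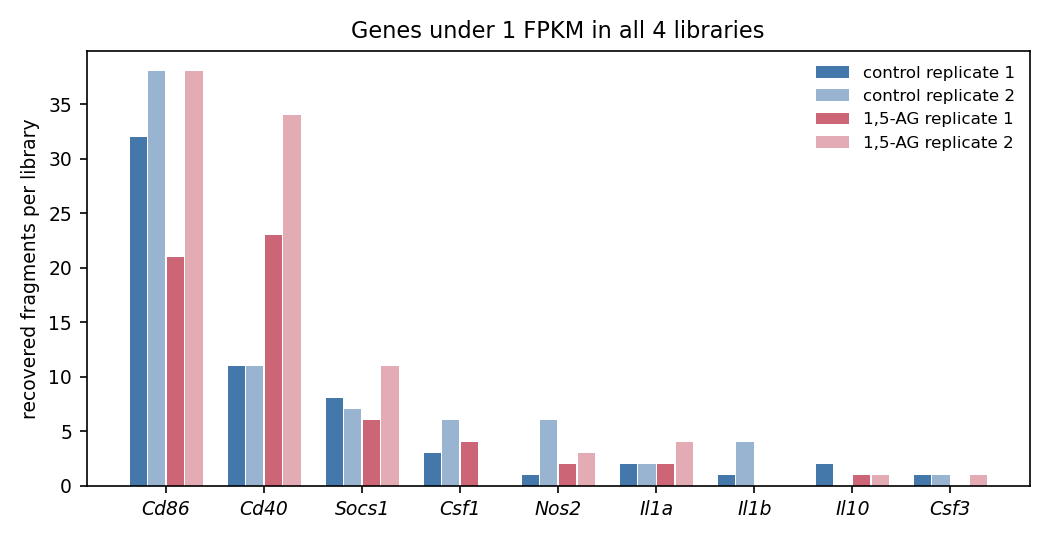
Recovered fragments per library (bars from 0) of the 9 genes under 1 FPKM in all 4 libraries, in order of total. Cd86, Cd40 and Socs1 have 6 to 38 fragments per library and the other 6 genes 0 to 6, and Cd40 is higher in both 1,5-AG libraries (23 and 34) than in control (11 and 11).

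Other genes of the pathway were read from 3 lists. The signalling list held upstream genes and further regulators, among them the nuclear regulator genes Nfkbid and Nkrf. The receptor list held receptors of the listed cytokines, and also Ltbr, whose ligands were not listed (limma log2 fold change -0.17). The last list covered cytokine processing and mRNA decay. Nkrf and Ltbr are named after their values were seen. Of 39 tested signalling genes 1 rose and 0 fell in limma, with a median of -0.02, where 0.809% of all genes rose and 0.647% fell. Ikbke, a kinase related to the IKKs that acts in interferon induction, rose from 3.58 and 3.39 FPKM to 5.97 and 6.02 FPKM (limma log2 fold change 0.64, SE 0.06, adjusted p = 0.0278). With any 1 library left out, when limma called 2 to 10 genes in all, Ikbke kept a log2 fold change of 0.61 to 0.67 and was not called (limma adjusted p from 0.105 to 0.137). Voom called 1 of 41 signalling genes higher and 2 lower, where it called 3.24% and 4.23% of all genes. The 2 lower were Irak4 (5.99 and 5.89 against 4.70 and 4.39 FPKM, voom adjusted p = 0.0108) and Tnfaip8l2 (37.9 and 37.0 against 30.0 and 27.5 FPKM, voom adjusted p = 0.00412). The kinases and scaffold of the IKK complex itself, Chuk, Ikbkb and Ikbkg, were among the 38 not called by limma. They and the 2 lower with voom are named after their values were seen.

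Of 14 tested receptor genes 1 fell and 0 rose in limma, where 0.647% of all genes fell and 0.809% rose. A negative log2 fold change was found for 13 of 14 (median -0.18, against 50.9% of all genes negative). At an unadjusted limma p of 0.05, 8 of 14 (57.1%) passed, 0 higher and 8 lower, against 18.2% of all genes. The groups did not overlap in 11 of 14 (78.6%), 0 higher and 11 lower, against 49.6% of all genes. Tnfrsf1b, the second receptor of TNF, fell from 11.3 and 11.9 FPKM to 7.87 and 7.12 FPKM (limma log2 fold change -0.57, SE 0.07, adjusted p = 0.0370). In the same fits with 1 library left out, Tnfrsf1b had log2 fold changes from -0.63 to -0.50 and was not called (limma adjusted p from 0.108 to 0.153). Tnfrsf1a, the first TNF receptor, had 40.2 and 36.5 against 30.3 and 31.5 FPKM (-0.30, limma adjusted p = 0.0932). Il6ra, the interleukin-6 receptor, had 16.8 and 17.3 against 13.8 and 14.2 FPKM (-0.27, limma adjusted p = 0.0777). Both TNF receptor genes were lower in both treated libraries, and the ligand gene Tnf was higher. A link between them was not tested. Voom called 7 of 15 receptor genes lower and 0 higher, where it called 4.23% of all genes lower. Tnfrsf1a, Il6ra and Tnfrsf9 were chosen for mention after their values were seen. Tnfrsf9, the receptor of the Tnfsf9 product, had 0.0485 and 0.0906 FPKM in control and 0.176 and 0.0972 FPKM with 1,5-AG.

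In the processing and mRNA decay list 0 of 15 tested genes passed limma, where 1.46% of all genes did, and 2 (13.3%) had an unadjusted p under 0.05, where 18.2% of all genes did. With voom 1 of 16 was higher and 1 lower, where 3.24% and 4.23% of all genes were. Zfp36l2, whose product speeds the decay of AU-rich mRNAs, had 44.4 and 40.6 FPKM in control and 35.3 and 35.3 FPKM with 1,5-AG (limma log2 fold change -0.26, adjusted p = 0.104; voom adjusted p = 0.00277). Nlrp3, the inflammasome sensor, had 12.2 and 12.2 against 14.7 and 13.9 FPKM (0.22, limma adjusted p = 0.120; voom adjusted p = 0.0404). Pycard, the adaptor that links that sensor to caspase-1, had 0.0868 and 0.0162 FPKM in control and 0.0180 and 0.0174 FPKM with 1,5-AG, and was chosen for mention after its values were seen.

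**Figure D5:**
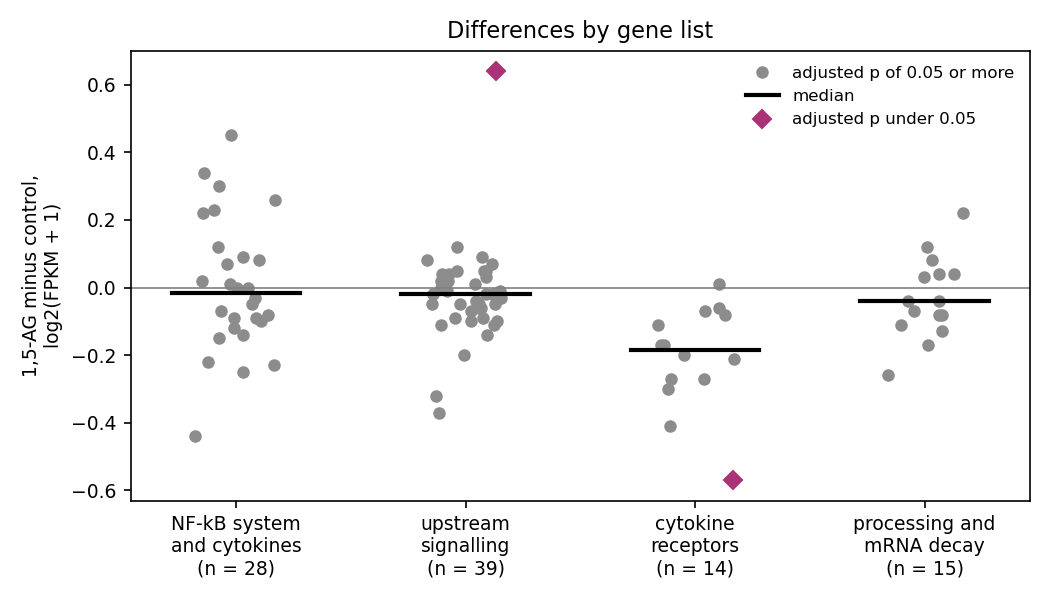
Log2 fold changes (1,5-AG minus control on log2(FPKM + 1)) of tested genes in 4 lists, 1 point per gene, with the median as a bar and genes past a limma adjusted p of 0.05 as diamonds. The NF-kB and cytokine genes spread evenly around 0 (14 positive, 14 negative), and 13 of 14 receptor genes lie below 0.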

How the data were processed

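The authors deposited FPKM per Ensembl gene for 4 libraries. The submitters' processing notes name build mm10 and HISAT2, HTSeq, Cufflinks and Trimmomatic; the sources used here give no versions, roles, annotation release or strand setting, so overlapping genes are uncertain. Symbols, coordinates and merged exon lengths came from GENCODE M21 (21508 of 21523 identifiers matched). FPKM multiplied by exon length gave whole fragments, within 0.02, in all libraries for 99.4% of matched genes. Merged lengths count every annotated exon, which lowers FPKM of genes with long rare isoforms.

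limma 3.58.1 (R 4.3.3) was fitted to log2(FPKM + 1) with a variance trend and no covariate. Genes needed a mean of at least 1 FPKM, and of rows sharing a symbol the highest was used. Tests were two-sided, adjusted by Benjamini-Hochberg over the whole table with a threshold of 0.05. Voom on recovered fragments (mean of at least 10) was added after the data were seen. The script was tested on simulated data. Promoter windows came from RefSeq (GRCm38.p6). Every listed gene is named, those at 1 FPKM or more with each library's value, and of each pathway list up to 4 genes past the threshold or the 2 with the smallest p. The genes and lists were chosen with earlier results of these data known.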

Additional observations from a re-analysis of the deposited data

How the results depend on the processing

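Of all genes tested, 162 passed. Scaling, pseudocount and robust variance moved this count to between 145 and 211. The filter set to nothing gave 0, a filter at 5 FPKM gave 360, and a fit with no variance trend gave 5. There were 310 with the replicate block, 412 among protein coding genes, 911 with voom, 929 with voom at a mean of at least 10 fragments, and 2 to 10 with 1 library left out. The count among the 28 NF-kB and cytokine genes, 0, became 1 (Nfkbia) with a pseudocount of 0.01, robust variance or the replicate block. It was 4 among protein coding genes and 3 with voom. The filter at 5 FPKM left 16 of these genes, of which 2 passed, where 360 of all 7500 genes did. With voom at a mean of at least 10 fragments 4 of 30 passed, among them Cd40, which is not one of the 28. The signalling count, 1, was 0 without a filter and without the variance trend, and 2 with robust variance or the replicate block. It was 3 among protein coding genes and in both voom fits. With the filter at 5 FPKM it was also 1, of 32 genes tested, but the called gene was lower with 1,5-AG and so was not Ikbke. The receptor count, 1, was 0 without a filter and without the variance trend, 3 with the filter at 5 FPKM and among protein coding genes, 7 in both voom fits, and 0 to 0 with 1 library left out. The processing and decay count, 0, was 1 among protein coding genes and 2 in both voom fits. Fewer genes tested or fewer libraries follow from the construction of some settings; otherwise the cause was not tested.

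With the replicate block, Nfkbia had a limma adjusted p of 0.0203. Across genes, libraries with equal numbers deviated from their group means with a correlation of 0.0124, and no label says that equal numbers share a culture. The median log2 fold change of the listed genes in the fit moved by less than 0.0426 in each setting, the spread of the 28-gene median between libraries. It was taken over 37 genes without a filter, 16 with the filter at 5 FPKM, 30 with voom at a mean of at least 10 fragments, and 28 otherwise. Over 36 named genes 482 values kept sign and side of the threshold, 16 lost the call, 28 gained it and 15 changed sign. The sign changes came from leaving out 1 library, where the remaining lone sample is assumed to vary like the other group. Over these fits Nfkb1 ran from -0.0105 to 0.06, Nfkbib from -0.24 to 0.0027, Nfkbiz from -0.09 to 0.0202, Tnfaip3 from -0.0050 to 0.14, Tnip1 from -0.0341 to 0.04, Tnip3 from -0.0016 to 0.02, Traf1 from -0.0824 to 0.09, Il1rn from -0.18 to 0.0201, Osm from -0.0063 to 0.19, Tgfb1 from -0.0130 to 0.18 and, with voom, Cd86 from -0.62 to 0.1736. Depth limits the 6 genes with 0 to 6 fragments per library, for which only large differences could show.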
